A study of Mus musculus with 3 samples.

Results

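The small leucine-rich proteoglycans were described in droplet single-cell RNA sequencing of mouse skin. The 8 genes were Dcn (decorin), Lum (lumican), Bgn (biglycan), Fmod (fibromodulin), Kera (keratocan), Ogn (osteoglycin), Prelp and Aspn (asporin), found by their symbols among the 31053 genes listed in the count matrices. Each symbol matched 1 row. The family was selected on the UMI counts of its members by cell class and library in earlier work on these same cells, so their levels and ratios are given as descriptions and carry no test. The skin came from C57BL/6 mice at post natal 7 weeks, and the series concerns hair growth under the natural product Shi-Bi-Man. The control library and the metformin library were analysed, and the Shi-Bi-Man library was not analysed here. Metformin is a widely used glucose-lowering drug. The labels give no dose, route, time after treatment or number of mice per library. Each condition was 1 library, so a difference between conditions cannot be told apart from a difference between 2 libraries, and no test between conditions was possible.

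Small leucine-rich proteoglycans are secreted matrix proteins with a core of leucine-rich repeats, most of which carry chondroitin, dermatan or keratan sulfate chains. They bind collagen fibrils and set their diameter and spacing, and some bind growth factors of the TGF-beta family. Decorin, biglycan and asporin form class I, although asporin lacks the usual sugar chains. Fibromodulin, lumican, keratocan and Prelp form class II, and osteoglycin belongs to class III. In skin the dermal fibroblast is the known main source of decorin and lumican.

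Many of these genes are neighbours in the genome (build GRCm38). Dcn (ENSMUSG00000019929, chr10:97479609-97518143, plus strand), Lum (ENSMUSG00000036446, chr10:97565128-97572703, plus strand) and Kera (ENSMUSG00000019932, chr10:97606879-97613692, plus strand) lie in a row, with 46984 bases between Dcn and Lum and 34175 bases between Lum and Kera. Aspn (ENSMUSG00000021388, chr13:49544443-49567565, plus strand) and Ogn (ENSMUSG00000021390, chr13:49608046-49624501, plus strand) flank the related gene Omd. Prelp (ENSMUSG00000041577, chr1:133910304-133921414, minus strand) and Fmod (ENSMUSG00000041559, chr1:134037254-134048277, plus strand) lie 115839 bases apart. Bgn (ENSMUSG00000031375) is at chrX:73483602-73495933 on the plus strand.

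The 250 bases before the RefSeq start of Fmod, Ogn and Aspn (build GRCm38.p6) are shown because Fmod and Ogn had a higher level and Aspn a lower level in the metformin library in dermal sheath-like cells. The windows are chr1:134037004-134037253 for Fmod, chr13:49607765-49608014 for Ogn and chr13:49544193-49544442 for Aspn, all on the plus strand, written 5′ to 3′. Capitals mark the TATA box letters TATAAA and the letters GGAATG, bound by TEAD factors, on either strand.
Fmod: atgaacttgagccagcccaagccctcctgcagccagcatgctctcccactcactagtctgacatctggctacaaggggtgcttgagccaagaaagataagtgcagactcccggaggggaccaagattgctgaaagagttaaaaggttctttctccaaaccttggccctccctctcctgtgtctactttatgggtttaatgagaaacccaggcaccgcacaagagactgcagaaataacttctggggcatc
Ogn: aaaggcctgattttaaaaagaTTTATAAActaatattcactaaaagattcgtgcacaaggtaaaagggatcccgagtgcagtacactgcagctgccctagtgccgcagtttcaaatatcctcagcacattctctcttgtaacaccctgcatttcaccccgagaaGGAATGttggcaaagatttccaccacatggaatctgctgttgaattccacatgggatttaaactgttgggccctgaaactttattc
Aspn: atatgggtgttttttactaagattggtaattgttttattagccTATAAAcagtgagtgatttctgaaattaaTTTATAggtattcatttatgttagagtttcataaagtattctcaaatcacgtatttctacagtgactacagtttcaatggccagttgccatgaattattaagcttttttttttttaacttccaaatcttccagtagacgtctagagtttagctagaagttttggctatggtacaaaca
TATAAA was found in the Ogn and Aspn windows. In Ogn the matches on the 2 strands overlapped and began 227 and 229 bases before the start, and in Aspn they began 207 and 178 bases before it. TATAAA stood in 12.4% of all 32851 windows of this length. GGAATG was found in Ogn, 86 bases before the start, and in 12.6% of all windows. The AP-1 letters TGANTCA, present in 6.75% of all windows, were in none of these 3 windows, and no capitals stand in the Fmod window. The table held 6 of the 8 genes, and Dcn and Lum had no entry.

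After filtering, 9688 cells of the control library and 8827 cells of the metformin library remained, with medians of 3557 and 5568 unique molecular identifiers (UMIs, each counting 1 captured RNA molecule) per cell. The libraries shared 41 barcodes, 27 of them among the kept cells. Cells were grouped into clusters without using the 8 genes or 9 related genes, and clusters were named "-like" from marker genes. The share of fibroblast-like cells was 41.4% (95% interval 40.4 to 42.4) in the control library and 16.7% (15.9 to 17.4) in the metformin library. That of hair matrix-like cells, the keratin-producing cells that build the hair and its inner root sheath, was 0.175% (0.102 to 0.281) and 10.4% (9.81 to 11.1). Levels are counts per 1000000 UMIs of a cell group (CPM). The counts tally transcripts from their 3′ ends, so no scaling by gene length was applied between genes. The 95% intervals describe counting error and no variation between mice.

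Fibroblast-like cells held 96.7% of all UMIs of the 8 genes in the control library and 84.2% in the metformin library. Of the Dcn UMIs, 98.2% and 89.2% lay in fibroblast-like cells, and of the Lum UMIs 97.9% and 94.1%. For Bgn the shares were 92.2% and 56.4%, and dermal sheath-like cells, which surround the follicle, held 3.40% of its UMIs in the control library and 27.3% in the metformin library. For Prelp they were 88.0% and 57.3%, with 3.23% and 27.7% in dermal sheath-like cells. These shares follow both the number of cells of a type and the RNA per cell.

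**Figure D1:**
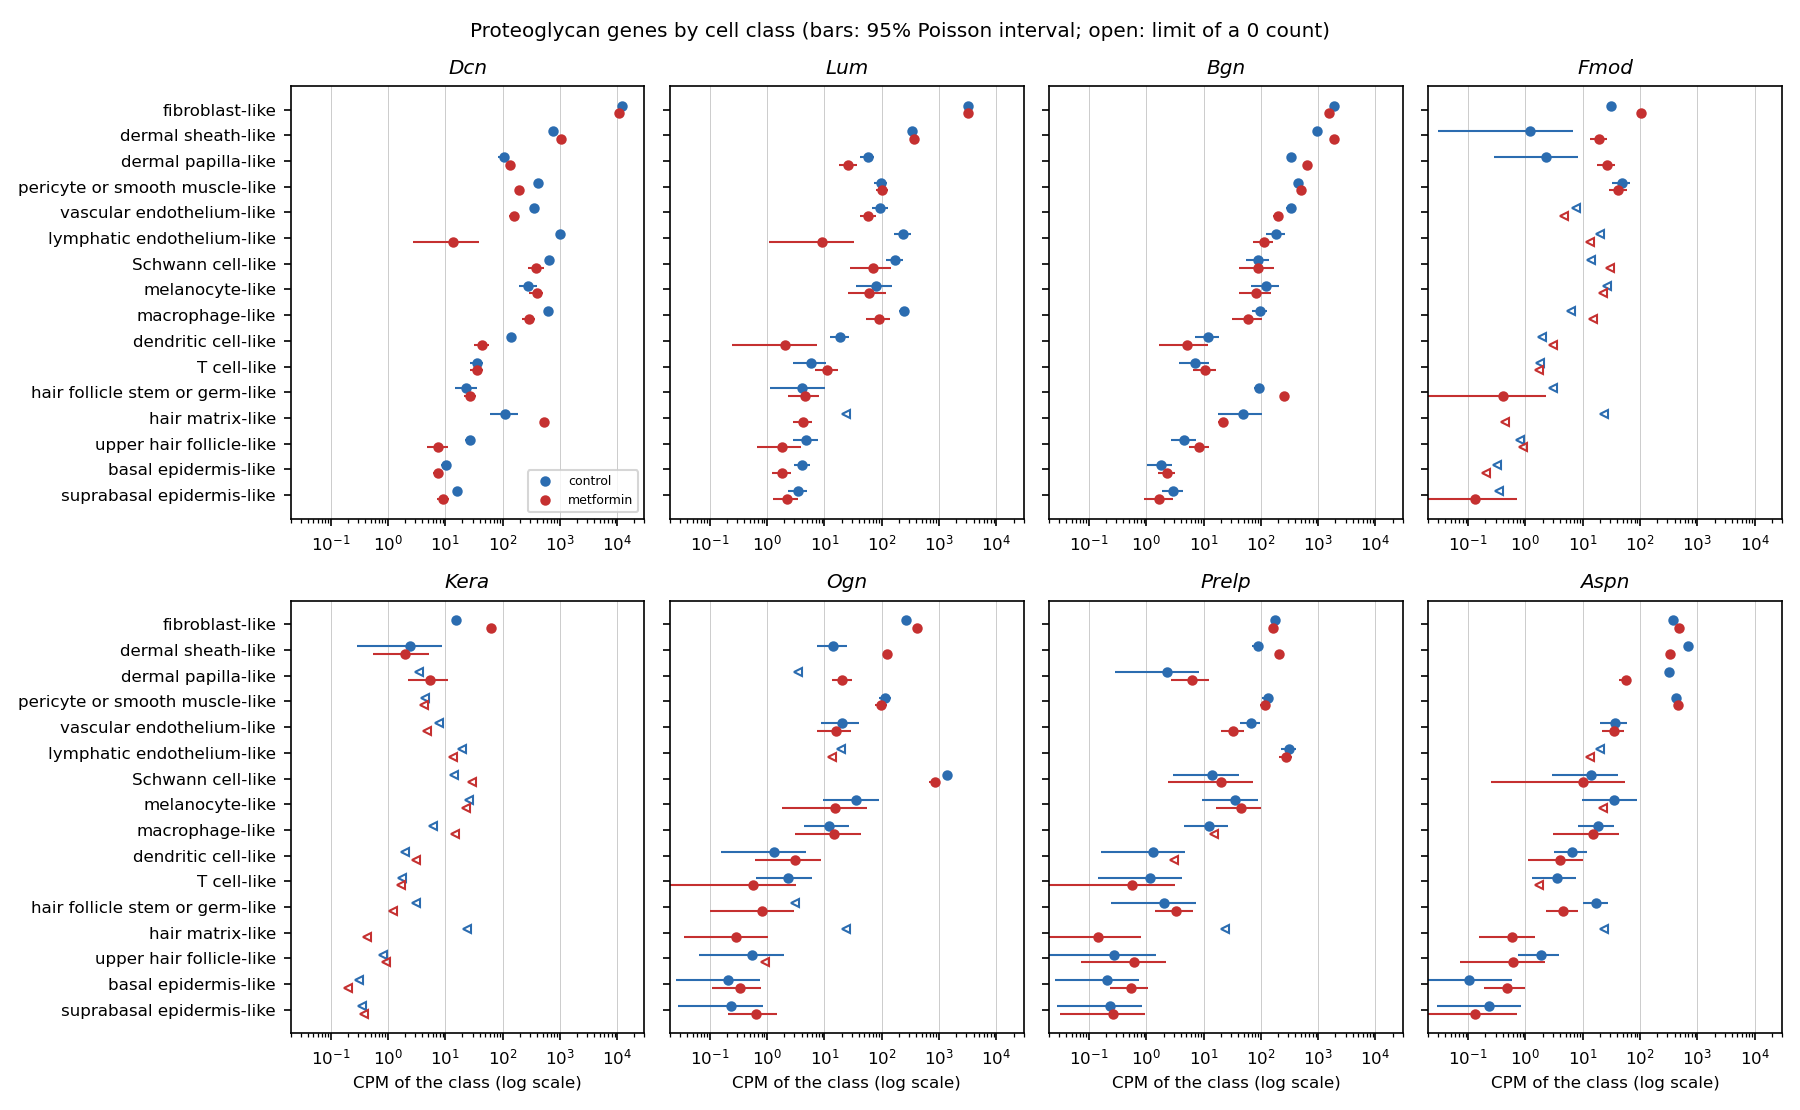
Level of each of the 8 genes (CPM, log scale) in 16 cell classes of the control library (blue) and the metformin library (red), with 95% Poisson intervals as bars and open triangles for the limit of a count of 0. Dcn and Lum stand well above every other class in fibroblast-like cells, whereas Ogn is highest in Schwann cell-like cells and Prelp in lymphatic endothelium-like cells, where its interval in the metformin library overlaps that of dermal sheath-like cells.

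Within fibroblast-like cells Dcn stood first by level. Decorin binds the surface of collagen fibrils, and its transcript was at 12395 CPM in the control library and 10824 CPM in the metformin library, with a UMI in 99.8% of cells in both. Lum, which shapes fibril spacing, was at 3155 and 3235 CPM and was detected in 94.8% and 93.8% of cells. Bgn, the close relative of decorin, was at 1882 and 1546 CPM in 91.4% and 90.3% of cells. The remaining genes were lower and were found in a minority of the cells. Aspn, which competes with decorin for collagen, was at 376 and 477 CPM. Ogn was at 265 and 415 CPM, and Prelp, which anchors basement membrane to collagen, was at 173 and 165 CPM. Fmod, a regulator of fibril thickness and crosslinking, was at 30.6 and 104 CPM with UMIs in 51 of 4014 and 50 of 1470 cells, and Kera, best known from the cornea, was at 15.2 and 62.5 CPM with UMIs in 98 and 136 cells. With each cell thinned to 1500 UMIs, the median fibroblast-like cell held 18 Dcn, 4.0 Lum and 2.0 Bgn UMIs in the control library and 15, 4.0 and 2.0 in the metformin library.

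Between the libraries, 3 of the 8 genes differed by at least 1.5-fold in fibroblast-like cells, all higher in the metformin library. Of the 12133 genes with at least 20 UMIs over both libraries, called tested here, 7.49% were higher and 7.38% lower by this measure. The largest ratio of metformin to control was that of Kera, 4.12 (95% interval 3.42 to 4.98). Fmod followed at 3.40 (2.96 to 3.89) and Ogn at 1.56 (1.48 to 1.65), the last just past the threshold and below it, at a log2 ratio of 0.54, with no upper gene limit and up to 20% mitochondrial UMIs. Of the Ogn UMIs, 1427 of 3093 (control) and 1000 of 2111 (metformin) lay in the cluster led by Plac8 and Sfrp4, described below. That cluster made up 7.77% of control and 13.8% of metformin fibroblast-like cells, and its own Ogn ratio was 1.06 (0.975 to 1.15). The part of this make-up in the class ratio was not tested. Below the threshold the nearest was Aspn at 1.27 (1.21 to 1.34), and Lum was at 1.03 (1.01 to 1.04). Prelp was at 0.957 (0.882 to 1.04), Dcn at 0.873 (0.865 to 0.882) and Bgn at 0.821 (0.800 to 0.843). The abundant collagen genes stood at 1.20 (Col1a1), 1.13 (Col1a2) and 1.29 (Col3a1) in the same cells. The median log2 ratio was 0.19 over the 8 genes and 0.04 over all genes tested.

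The fibroblast-like cells formed 5 clusters, named here by their leading genes, and the highest levels of the 8 genes were spread over 4 of them. The cluster led by Cyp2f2 and Cpz (1547 control and 468 metformin cells) had the highest Dcn, 17585 and 18745 CPM, and the highest Lum, 4184 and 4865 CPM. No Fmod UMI was counted in its cells, where 0 of 1547 control cells allows a share of cells with a UMI of up to 0.194%. The cluster led by Coch and Dkk2 (908 and 385 cells) had the highest Fmod, 102 and 334 CPM, and the highest Kera, 52.6 and 186 CPM. It also had the highest Bgn of the control library, 2532 CPM, and in the metformin library its Bgn of 1956 CPM was level with the 1958 CPM of the Cyp2f2 and Cpz cluster. Cells of the cluster led by Plac8 and Sfrp4 (312 and 203 cells) had the highest Ogn, 1507 and 1595 CPM, beside the lowest Dcn, 7145 and 6510 CPM, and the lowest Lum, 1380 and 1236 CPM. The cluster led by Stc1 and Igfbp2 (351 and 147 cells) had the highest Prelp, 323 and 315 CPM, and the lowest Ogn, 35.1 and 35.0 CPM. In the control library it also had the highest Aspn, 794 CPM, whereas in the metformin library its Aspn of 559 CPM lay below the 620 CPM of the Coch and Dkk2 cluster. These 2 metformin levels were close and rest on 272 and 936 UMIs. The metformin cells of the Coch and Dkk2 cluster without a Fmod UMI had Aspn at 493 CPM. No highest level was found in the cluster led by Cxcl12 and Timp1 (896 and 267 cells).

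**Figure D2:**
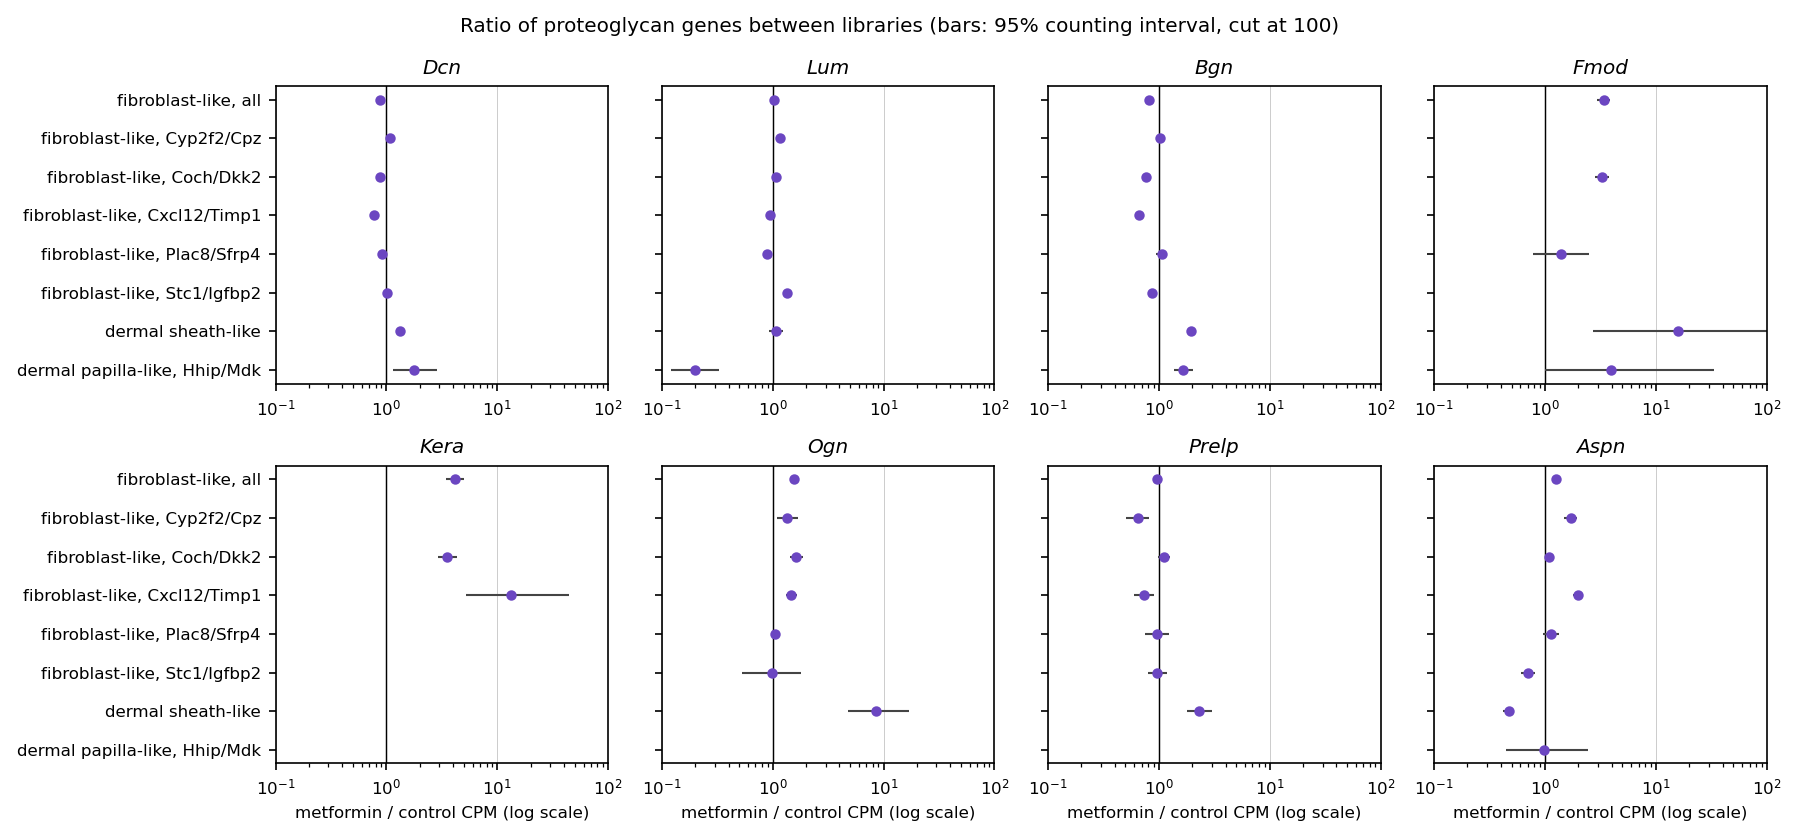
Ratio of metformin to control CPM (log scale) of each gene in fibroblast-like cells, their 5 clusters, dermal sheath-like cells and the dermal papilla-like cluster led by Hhip and Mdk, with 95% counting intervals as bars; groups with too few counts or a count of 0 carry no point. Dcn and Lum lie between 0.773 and 1.34 in the 5 fibroblast-like clusters, whereas Fmod and Kera lie above 3 in the cluster led by Coch and Dkk2.

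The higher Fmod of the metformin library lay in the cluster led by Coch and Dkk2, where 326 of the 357 control UMIs and 504 of the 529 metformin UMIs of fibroblast-like cells were counted and the ratio was 3.27 (2.84 to 3.77). Of its 8 genes tested, 3 were past 1.5-fold and all 3 were higher in the metformin library, against 8.77% of all genes tested in that cluster. Besides Fmod these were Kera at 3.54 (2.91 to 4.31) and Ogn at 1.64 (1.44 to 1.86). Kera was also higher in the Cxcl12 and Timp1 cluster, with 5 UMIs (1.74 CPM) in the control library and 31 UMIs (23.4 CPM) in the metformin library, a ratio of 13.4 (5.18 to 44.2). There Aspn was at 246 and 488 CPM, a ratio of 1.99 (1.78 to 2.21), and Bgn at 1563 and 1034 CPM, a ratio of 0.661 (0.622 to 0.703). At a finer clustering (Leiden resolution 2) the log2 ratios there were 0.50 for Aspn and -0.45 for Bgn, both within 1.5-fold. In that cluster 9.80% of all genes tested were higher and 15.7% lower by this measure, and Col1a1 was higher at 2.31 (2.26 to 2.36). In the Cyp2f2 and Cpz cluster Aspn was at 167 and 285 CPM (1.71, 1.49 to 1.96), beside 7.98% of all genes higher, and Prelp at 114 and 73.7 CPM (0.648, 0.506 to 0.822), beside 10.3% lower. The clusters led by Plac8 and Sfrp4 and by Stc1 and Igfbp2 had no gene of the 8 past 1.5-fold, beside 22.0% and 20.7% of all genes in either direction. In the Plac8 and Sfrp4 cluster this depended on the clustering, since Fmod, with 27 control and 25 metformin UMIs and a log2 ratio of 0.48, was at 4.01 at resolution 2.

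Fmod was concentrated in few cells. In the Coch and Dkk2 cluster 39 of 908 control cells and 42 of 385 metformin cells held any Fmod UMI, with up to 37 UMIs in 1 control cell and 66 in 1 metformin cell. The Fmod ratio of the cluster follows both the share of such cells and the level in them. Kera and Ogn were also higher in the cells with Fmod. The cells without a Fmod UMI differed between the libraries too, with Kera at 39.3 CPM in the control library and 152 in the metformin library. Ogn in those cells was at 135 and 193 CPM. The part of the cells with Fmod in the Kera and Ogn ratios was not tested. The counting intervals of the Fmod, Kera and Ogn ratios do not cover the small number of cells with Fmod. The cells with Fmod were shallower than the others, with medians of 2884 against 3262 UMIs in the control library and 2962 against 3853 in the metformin library. In the control library they had Aspn at 3285 CPM against 475 in the other cells of the cluster, Ogn at 1353 against 135, Prelp at 908 against 193, and Kera at 418 against 39.3. The metformin library had Aspn at 1839 against 493 CPM, Ogn at 1235 against 193, Prelp at 576 against 209, and Kera at 512 against 152. Lum, Bgn and Dcn went the other way. Lum was at 855 against 2517 CPM in the control library and 758 against 2856 in the metformin library, and 59.0% (control) and 33.3% (metformin) of the cells with Fmod held a Lum UMI. Bgn was at 1024 against 2587 CPM in the control library and 1271 against 2027 in the metformin library. Dcn was at 7157 against 8256 CPM and 5848 against 7264, and was detected in 100% of the cells with Fmod in both libraries. In both libraries Cck, which encodes a peptide hormone, Coch, Crabp1, a retinoic acid-binding protein, Sema3e, Krt8 and Itga11, a collagen receptor subunit, were among the genes most enriched in cells with Fmod. Coch was at 12018 against 364 CPM in the control library and 14229 against 568 in the metformin library. These cells and genes were picked after their values were seen, and all come from 1 cluster of each library.

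**Figure D3:**
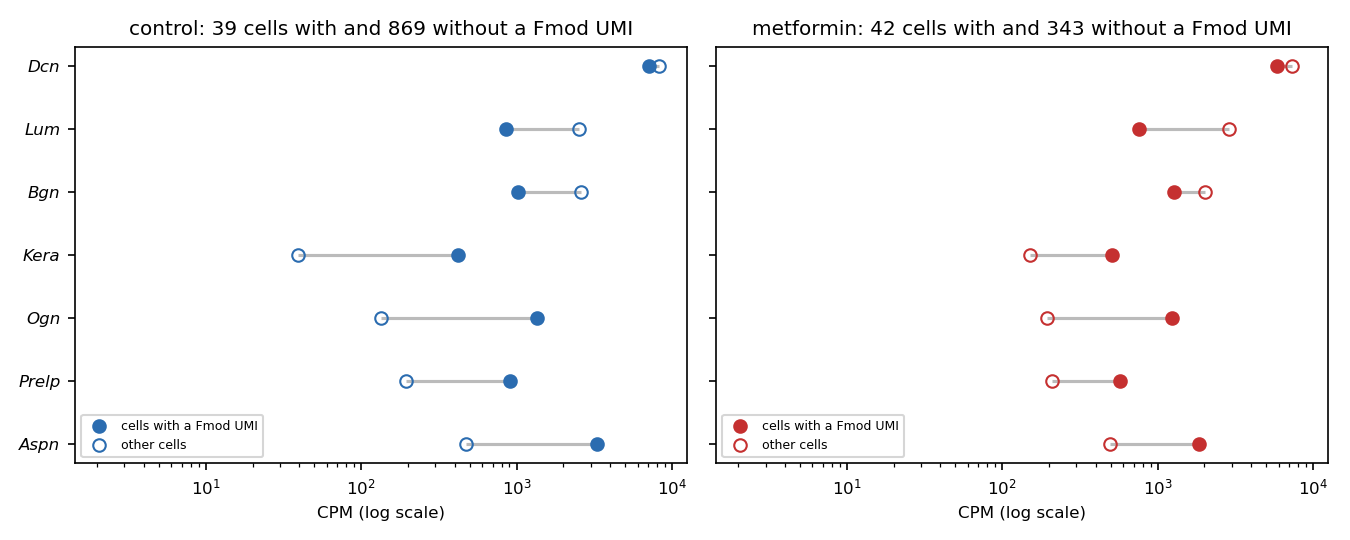
Level (CPM, log scale) of the other 7 genes in cells of the Coch and Dkk2 cluster with a Fmod UMI (filled points) and without (open points), control library at left and metformin library at right. Aspn, Ogn, Prelp and Kera are higher and Lum, Bgn and Dcn are lower in the cells with Fmod in both libraries.

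Dermal sheath-like cells were 1 cluster of 224 control and 353 metformin cells led by Col11a1, Lrrc15, Ednrb and Acan, a name that rests on markers listed when such a cluster was already known. The 8 fibroblast markers, Col1a1 among them, were all detected in these cells and summed to 15830 CPM in the control library and 39103 CPM in the metformin library. Of the 7 proteoglycan genes tested, 4 were at least 1.5-fold higher in the metformin library, where 17.5% of all 9047 genes were, and 1 was lower, where 20.3% were. Ogn had 12 UMIs (14.4 CPM) in 6 control cells and 246 UMIs (124 CPM) in 99 metformin cells, a ratio of 8.60 (4.83 to 16.9). Bgn was at 970 and 1913 CPM, a ratio of 1.97 (1.83 to 2.13), and was the highest of the 8 genes here in both libraries. Prelp was at 88.6 and 204 CPM, a ratio of 2.30 (1.79 to 2.99). Fmod had 1 UMI in the control library and 38 UMIs in 26 cells of the metformin library, a ratio of 15.9 whose interval runs from 2.69 to 646. Aspn was lower, at 699 CPM in 64.3% of control cells and 329 CPM in 56.4% of metformin cells, a ratio of 0.470 (0.420 to 0.527). Dcn (774 and 1028 CPM) and Lum (338 and 363 CPM) differed by less than 1.5-fold. In the same cells Col1a1 was at 5962 and 18679 CPM, a ratio of 3.13 (3.04 to 3.23), and Omd, the neighbour of Ogn and Aspn, at 16.8 and 91.4 CPM, a ratio of 5.45 (3.17 to 10.2). The cells of the metformin library were deeper, with a median of 5465 UMIs against 3326, and the part of depth in these ratios was not tested.

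Dermal papilla-like cells, the signalling cells at the base of the follicle, lay mostly in different clusters in the 2 libraries. One, led by Slc26a7 and Notum, held 265 control and 18 metformin cells, and that led by Hhip and Mdk held 88 and 304. Over both clusters 3 of 6 genes tested were past 1.5-fold higher (27.5% of all genes were) and 2 lower (14.2% of all genes were), around a median log2 ratio of 0.17 over all genes. Aspn was at 320 CPM in the control library and 56.0 CPM in the metformin library, a ratio of 0.175 (0.133 to 0.227). By cluster, Aspn was at 467 and 766 CPM in the Slc26a7 and Notum cluster and at 27.6 and 27.1 CPM in the Hhip and Mdk cluster. Bgn was at 339 and 648 CPM (1.91, 1.67 to 2.19), and within the Hhip and Mdk cluster at 397 and 656 CPM (1.65, 1.36 to 2.03). Fmod had 2 UMIs in the control library and 33 in the metformin library, all in the Hhip and Mdk cluster, where the ratio was 3.92 (1.0 to 33.7). Ogn had 0 UMIs in 353 control cells, which allows a share of cells with a UMI of up to 0.850%, and 26 UMIs in 12 of 322 metformin cells. Against a floor of 3 UMIs for the control class this was at least 5.93-fold higher, and at least 2.06-fold higher within the Hhip and Mdk cluster. With the counting error of both libraries the lower limits of the ratio were 4.49 and 1.56. Lum was at 56.5 and 26.0 CPM, but 36 of its 49 control UMIs came from 1 cell, and 79.3% or more of the Dcn UMIs of this class came from 5 cells of each library.

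Outside these dermal cells, 1 or a few of the genes stood out in each of 4 classes. Schwann cell-like cells, which wrap nerve fibres, had the highest Ogn of all classes, 1365 CPM (1212 to 1532) in the control library with UMIs in 74 of 112 cells, and 838 CPM (669 to 1038) in the metformin library with UMIs in 24 of 54 cells. Dcn was counted in 8 and 3 of these cells. Collagen UMIs were present in most of the cells, and of the 24 control cells without a UMI of Col1a1, Col1a2 or Col3a1, 10 held Ogn, at 809 CPM. With a wider cell filter (no upper gene limit and up to 20% mitochondrial UMIs) the class had Ogn at 697 CPM in the control library. Of the 4 genes tested in this class 3 were lower in the metformin library, against 12.7% of all genes. They were Ogn (0.614), Dcn (0.601), counted in the few cells given above, and Lum (0.411), with 36 and 7 UMIs. The 8 fibroblast markers summed to 4417 CPM in the control cells and 3483 CPM in the metformin cells of this class. Lymphatic endothelium-like cells had the highest Prelp, 306 CPM (225 to 407) in 30 of 65 control cells and 273 CPM (209 to 351) in 40 of 76 metformin cells, and 85.1% and 93.4% of those UMIs came from cells without a collagen UMI. Col1a1, Col1a2 and Col3a1 had 2, 4 and 4 UMIs in the 76 metformin cells, so most of these cells held none. In the metformin library the Prelp interval overlapped that of dermal sheath-like cells (185 to 225), the class next to lymphatic endothelium-like cells. Dcn in lymphatic endothelium-like cells was at 154 and 3 UMIs, and all 154 control UMIs came from 5 cells. The 8 fibroblast markers there summed to 2699 CPM in the control cells and 53.7 CPM in the metformin cells. Pericyte or smooth muscle-like cells had Aspn at 421 and 453 CPM in 110 of 158 and 119 of 167 cells, Bgn at 439 and 508 CPM, and Fmod at 48.1 and 41.9 CPM in 24 and 23 cells. All Fmod UMIs of this class lay in 1 of its 2 clusters, where they stood at 73.4 and 60.3 CPM. Vascular endothelium-like cells, which line blood vessels, had Bgn at 329 CPM (274 to 391) in 37 of 125 control cells and 200 CPM (166 to 238) in 52 of 178 metformin cells. Of the cells without a collagen UMI, 22.2% and 29.5% held Bgn, at 216 and 195 CPM, and 12.2% and 10.3% held Prelp, at 52.9 and 32.5 CPM. No Lum UMI was counted in those cells, and 117 of the 137 control and all 100 metformin Dcn UMIs of the class came from 5 cells each. Of its 5 genes tested 4 were lower in the metformin library, against 12.3% of all genes, and the 8 fibroblast markers summed to 1094 CPM in the control cells and 664 CPM in the metformin cells. Kera had 0 UMIs in all 4 of these classes.

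Keratinocyte-like cells were taken as the measure of free RNA, because keratinocytes of the epidermis are not known as a source of dermal proteoglycans. In basal epidermis-like cells Dcn was at 10.2 CPM with a UMI in 5.65% (4.42 to 7.10) of control cells, and at 7.54 CPM in 4.0% (3.19 to 4.95) of metformin cells, at median depths of 7649 and 7105 UMIs. In T cell-like cells it was at 35.3 and 35.6 CPM, with a UMI in 4.40% and 3.66% of cells at medians of 2311 and 2245 UMIs. For each 100 UMIs of Col1a1, Col1a2 and Col3a1 the basal cluster led in number held 39.4 Dcn UMIs in the control library and 24.6 in the metformin library, against 44.1 and 32.2 in fibroblast-like cells. Shares of cells with Dcn at or below these values are read as background, which is an assumption. Free RNA was not measured apart from cells, and basal epidermis-like and T cell-like cells differed in depth and in Dcn level. The background of the other genes was lower in basal epidermis-like cells, at 4.08 and 1.82 CPM for Lum, 1.78 and 2.29 for Bgn, and 0 UMIs for Fmod and Kera.

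Over all keratinocyte-like cells Dcn was far higher in the metformin library, and the difference lay in hair matrix-like cells. The level was 17.6 CPM in the control library and 108 CPM in the metformin library, a ratio of 6.17 (5.59 to 6.82), and a UMI was found in 6.60% of 3108 cells and 12.8% of 4922 cells. Thinned to 1500 UMIs per cell, the shares were 1.98% and 6.95%. Of the 6 genes tested in these cells 3 were higher, against 16.9% of all genes, and 2 lower, against 7.72%. Without hair matrix-like cells Dcn was at 17.1 and 10.1 CPM, a ratio of 0.588 (0.506 to 0.684), with a UMI in 6.50% and 4.08% of cells. Hair matrix-like cells had Dcn at 525 CPM (508 to 542) in the metformin library, where 467 of 922 cells held it, and at 112 CPM (61.1 to 188) in the control library, where 4 of 17 cells did. With 17 control cells the levels of the 2 libraries in this class rest on very unequal numbers.

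The Dcn of hair matrix-like cells was above that of basal epidermis-like and T cell-like cells. In the metformin library, at 525 CPM (508 to 542), it stood below fibroblast-like (10824 CPM) and dermal sheath-like cells (1028 CPM) only. Melanocyte-like cells there had 393 CPM (294 to 516), an interval that overlaps that of hair matrix-like cells, and macrophage-like cells had 284 CPM. In the control library melanocyte-like cells had Dcn at 281 CPM and macrophage-like cells at 618 CPM. Level alone thus did not set the Dcn of hair matrix-like cells apart from every other class. Collagen and fibroblast marker counts are therefore given beside it, and its source was not tested. In the cluster led by Krt75, Krt28 and Shh (635 metformin cells) Dcn was at 685 CPM. Of these cells 247 held 0 Dcn UMIs, 173 held 1 to 4, 91 held 5 to 9 and 124 held 10 or more, with a highest value of 53, and the top 5 cells gave 6.93% of the UMIs. Lum, the next most abundant of the 8 genes in fibroblast-like cells, was at 4.91 CPM here, with at most 2 UMIs in any cell. The 8 fibroblast markers summed to 27.6 CPM, against 31.5 CPM in basal epidermis-like cells of the same library, and Pdgfra was the lowest at 0.819 CPM. For each 100 collagen UMIs there were 3218 Dcn UMIs, and 85.4% of the Dcn UMIs came from the 542 cells without any collagen UMI, of which 61.1% held Dcn. The cluster led by Krt35 and S100a3 (204 metformin cells) had Dcn at 193 CPM in 76 cells, and the cluster led by Krt71 and Krt25 (83 metformin cells) had 3 Dcn UMIs. Within the Krt75 cluster the 388 cells with Dcn had Wif1, a secreted Wnt inhibitor, at 137 CPM against 9.94 CPM in the cells without Dcn. Shh, the hedgehog ligand, was at 93.2 against 14 CPM, Wnt10b at 44.7 against 11.1, Fn1, which encodes fibronectin, at 64.6 against 16.4, and Ptn at 883 against 281. The cells with Dcn were somewhat deeper, at a median of 8716.5 against 7490.0 UMIs. These genes were chosen after their values were seen, in 1 library.

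**Figure D4:**
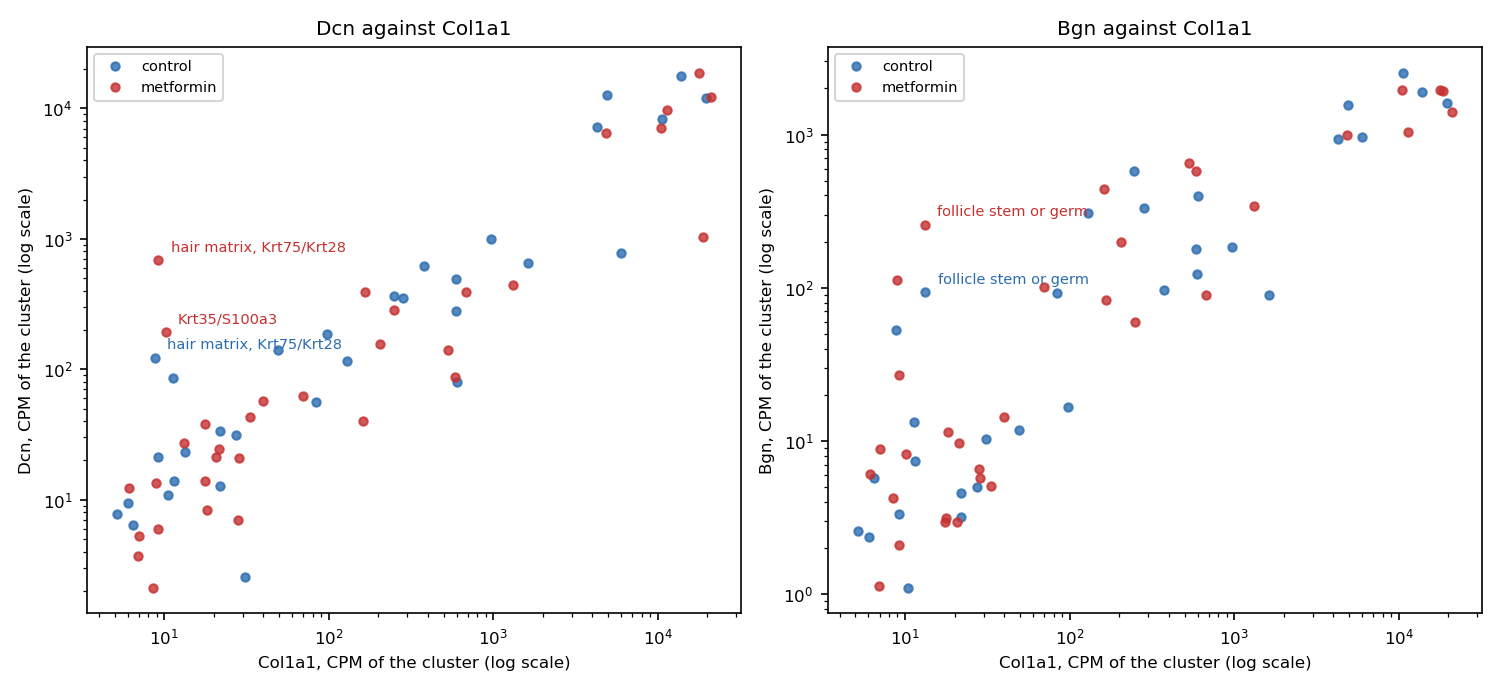
Level of Dcn (left) and Bgn (right) against that of Col1a1 in each cluster of the control library (blue) and the metformin library (red), in CPM on log scales, for clusters of at least 15 cells with counts of both genes. The hair matrix-like clusters led by Krt75 and Krt28 and by Krt35 and S100a3 lie far above the clusters of like Col1a1 for Dcn, and the hair follicle stem or germ-like cluster does so for Bgn.

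Among the epithelial classes Bgn was highest in hair follicle stem or germ-like cells, but it was not limited to them. In the metformin library hair matrix-like cells had Bgn at 21.4 CPM (18.1 to 25.1) and upper hair follicle-like cells at 8.47 CPM (5.63 to 12.2). Basal epidermis-like cells of that library had Bgn at 2.29 CPM (1.59 to 3.20). In hair follicle stem or germ-like cells, led by Shisa2, Tbx1 and Lhx2, Bgn was at 93.8 CPM (75.6 to 115) with UMIs in 56 of 193 control cells, and at 258 CPM (238 to 279) with UMIs in 288 of 469 metformin cells, a ratio of 2.75 (2.20 to 3.46). Of the 3 genes tested there 1 was higher, against 20.7% of all genes, and 1 was lower, against 8.90%, around a median log2 ratio of 0.17 over all genes. The lower gene was Aspn, at a ratio of 0.262 (0.111 to 0.593). Thinned to 1500 UMIs, 13.8% and 31.7% of cells held Bgn. Depth was alike, with medians of 4591 and 4771 UMIs. For each 100 collagen UMIs there were 192 and 879 Bgn UMIs, against 6.69 and 4.6 in fibroblast-like cells, and 76.1% and 88.1% of the Bgn UMIs came from cells without a collagen UMI. Col1a1, Col1a2 and Col3a1 had 13, 25 and 10 control UMIs and 32, 19 and 20 metformin UMIs here. Most cells of this class thus held no collagen UMI. Dcn in this class was at 23.4 and 27.2 CPM in 6.22% and 4.69% of cells, beside 5.65% and 4.0% of the deeper basal epidermis-like cells.

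Summed over all kept cells, 6 of the 8 genes were at least 1.5-fold lower in the metformin library, against 13.3% of all 15972 genes, and 1 was higher, against 10.4%. Dcn was at a ratio of 0.375 (0.372 to 0.379), Lum at 0.416, Bgn at 0.523, Aspn at 0.564, Prelp at 0.573 and Ogn at 0.656. Kera was higher at 1.63 (1.36 to 1.97), and Fmod stood at 1.44 (1.27 to 1.64). In such sums fewer cells of a type and less RNA per cell cannot be told apart, and the fibroblast-like share was itself lower in the metformin library.

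Across clusters the 8 genes did not share 1 pattern. Over 57 points (31 clusters, each in 1 or both libraries), Pearson's r of log2(CPM + 1) was 0.95 between Dcn and Lum, which are neighbours on chromosome 10, and 0.56 between Dcn and Kera of the same group. It was 0.89 between Bgn and Aspn, 0.52 between Fmod and Prelp and 0.76 between Ogn and Aspn. The points share libraries, depth and free RNA, so r is a description. Among 12126 genes those most like each proteoglycan were Lum, Htra3 and Medag for Dcn (0.954, 0.938 and 0.921), Fstl1, Kirrel and Col6a2 for Bgn (0.952, 0.946 and 0.941), and Dcn and Col1a2 for Lum (0.954 and 0.952), with Htra3 next. Aspn was most like Col6a2 (0.930), Prelp most like the related gene Ecm2 (0.931) and Ogn most like Galnt16 (0.902). The likeness was weaker for Kera, with Coch first at 0.784, and for Fmod, with Foxs1 and Heyl, known from pericytes, first at 0.772 and 0.764.

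The other genes of the pathway were taken from 5 lists. In fibroblast-like cells none of the 4 tested relatives was past 1.5-fold, among them Ecm2 (214 and 212 CPM), Podn (118 and 85.3 CPM) and Omd (15.8 and 23.2 CPM). Of the 24 tested genes that build the sugar chains, 2 were lower and 0 higher, a share lower that is near the 7.38% of all genes. They were Chst1 at a ratio of 0.401 (0.152 to 0.905) and Chst11, a chondroitin sulfotransferase, at 0.662 with an interval that includes 1 (0.411 to 1.03). Dsel, an epimerase that turns chondroitin into dermatan sulfate, was at 1.45 (1.30 to 1.62). Over all genes tested in these cells 7.49% were higher and 7.38% lower, the shares to set beside the counts of each list. Among 14 fibrillar collagen partners and crosslinking genes Col14a1 was higher at 2.01 (1.82 to 2.22) and Col12a1 lower at 0.494 (0.441 to 0.552), near those shares. Among 15 receptors and growth factors bound by proteoglycans Tgfb1 (0.589, 0.511 to 0.677), Tgfb2 (0.599, 0.545 to 0.659) and Ctgf (0.382, 0.353 to 0.414) were lower and 0 were higher, and none of 10 enzymes that cut proteoglycans was past 1.5-fold. In dermal sheath-like cells, where 17.5% of all genes were higher and 20.3% lower, 8 of 14 collagen partners were higher and 1 lower. Of 22 sugar chain genes 8 were higher and 1 lower, of 12 receptors and growth factors 3 were higher and 3 lower, of 8 enzymes 2 were higher and 1 lower, and of 3 relatives 1 was higher and 0 lower. Pcolce, which aids collagen processing, was there at 301 and 782 CPM, a ratio of 2.60 (2.27 to 2.98), and Adamts1, a proteoglycan-cleaving protease, at 223 and 84.4 CPM, a ratio of 0.379 (0.306 to 0.469). In dermal papilla-like cells, which lay in different clusters in the 2 libraries and where 27.5% of all genes were higher and 14.2% lower, 7 of 13 collagen partners were higher and 0 lower. Of 20 sugar chain genes 4 were higher and 2 lower, of 11 receptors and growth factors 3 were higher and 2 lower, of 8 enzymes 2 were higher and 0 lower, and the 1 relative tested was higher.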

How the data were processed

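The deposited matrices hold UMI counts, not normalized, which the authors made from single-cell libraries of mouse skin with Cell Ranger 4.0.0, per the file headers, and GRCm38 (mm10). Every barcode held at least 500 UMIs, with 12108 barcodes in the control library and 12092 in the metformin library. All gene identifiers are those of mouse, although the extraction text of the labels names a different species and other organs.

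From these counts, cells were kept that held at least 800 UMIs, 300 to 3000 genes and no more than 8% mitochondrial UMIs. Doublets were removed library by library (2.36% and 3.15% of cells) using Scrublet, as run by scanpy 1.11.5, with the expected rate set to 8%. Counts were scaled to 10000 per cell, 2000 variable genes were chosen without 17 proteoglycan genes, and 30 principal components, 20 neighbours (at least 3 shared) and Leiden clustering at resolution 1 (leidenalg 0.10.2) gave 34 clusters. A cluster took the name of the cell type, of 26 listed, with the highest mean log2 fold among those with at least 3 detected markers (1.5-fold in at least 10% of cells). It stayed unnamed, as 2 clusters did, where no type had 3, where more of its 10 leading genes marked another class than its own, or where the mean was under 1 and no marker of the name was among those 10. An upper hair follicle-like cluster was named at a mean of 0.11. Python 3.11.15, numpy 2.4.6, scipy 1.17.1, scikit-learn 1.9.0 and matplotlib 3.10.9 were used.

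UMIs were summed per class and library and given as CPM with exact Poisson intervals, shares with exact Clopper-Pearson intervals, and the metformin over control ratio with its exact conditional binomial interval, all at 95%. PCR and capture give no independent replicates, so intervals cover counting error only, and a sum can rest on few cells. A ratio was set against a fold of 1.5, with no statistical test, where both libraries together held at least 20 counts. This count of 20, the fold and a floor of 3 counts for a 0, also used as the limit of a share of 0, are choices. Ranges of depth are those of the cells, and shares were also computed with each cell thinned to 1500 UMIs.

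The 8 genes, the marker lists and the pathway lists were chosen with earlier results of these data known. Named genes were the 8 genes in every class, for each of them the 3 genes of highest correlation, at most 4 genes per pathway list by size of the ratio in fibroblast-like cells, and collagen genes for free RNA. Chst1, Pcolce and Adamts1 and the genes set beside cells with Fmod or Dcn were picked after their values were seen. Chst6 was not among the genes listed, and Ctgf and Wisp1 were matched by these older symbols. The choices varied are given in the closing section.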

Additional observations from a re-analysis of the deposited data

How the results depend on the processing

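Each interval describes counting error, because 1 library stood for each condition, so no spread between animals can be given, and no library can be left out. No paired analysis was possible because the control and metformin conditions were represented by 1 library each. Genes at few UMIs (Fmod and Kera outside fibroblast-like cells, Ogn in dermal papilla-like cells) rest on few cells. Of 306 alternative values of 54 reported log2 ratios, 261 lay within the counting interval, 43 lay outside it with the call's direction kept or with no call, and 2 reversed: Lum in fibroblast-like cells at -0.04 with no upper gene limit and up to 20% mitochondrial UMIs, and Dcn in dermal papilla-like cells at -0.89 with doublets kept. Of 20 matches of fibroblast-like clusters between settings 17 were used, those with a Jaccard index of at least 0.5, and the others gave no value. In fibroblast-like cells 3 of the 8 genes were past the fold as reported, and 2 were with the wider cell filter or at a fold of 2.

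The share of the 8 genes' UMIs in fibroblast-like cells was 95.9% (control) and 75.9% (metformin) with the wider cell filter, 93.2% and 81.4% with doublets kept, and 95.8% and 83.2% at resolution 2. The Dcn ratio in keratinocyte-like cells was 4.68 with doublets kept and 5.54 as a mean over cells. Added after seeing the data, it was 13.7 in cells without a collagen UMI and 0.588 without hair matrix-like cells, where the alternative itself removes the cells that held most of the Dcn. The share of keratinocyte-like cells with Dcn, metformin minus control, was 11 percentage points with the wider filter and -2.43 without hair matrix-like cells. The cause of the other shifts was not tested. Also added after seeing the data, Dcn in hair matrix-like cells of the metformin library stayed between 525 and 534 CPM with doublets kept, at resolution 2, with the proteoglycan genes allowed in clustering or in cells without a collagen UMI, and was 645 CPM with the wider filter. At resolution 2 the log2 ratio of Fmod in the Plac8 and Sfrp4 cluster was 4.01, against 0.48 as reported.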
